A study of Mus musculus with 8 samples.

Results

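Regulatory factor X (RFX) proteins are transcription factors that grip DNA through a winged-helix domain and bind the X-box, a pair of inverted half-sites in promoters. RFX1, RFX2 and RFX3 switch on genes of cilium assembly, and epidermal cells of the embryo carry a primary cilium that receives Hedgehog signals. RFX5 works only in a complex with RFXAP and RFXANK, which recruits the coactivator CIITA to promoters of MHC class II genes, whereas RFX7 drives a separate set of growth-restraining genes.

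The RFX genes described here are Rfx1, Rfx2, Rfx3, Rfx5, Rfx7, Rfxap and Rfxank, members of the family and its complex, chosen by symbol. They are 7 of the 23432 genes listed for each library, and all 7 passed the filter on low counts in both experiments. The remaining family members, Rfx4, Rfx6 and Rfx8, were at or near 0, with at most 10 counts in any library (Rfx8 in E16.5 control replicate 1), and were not tested.

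Polyadenylated RNA of mouse skin epithelium was sequenced in 8 libraries, 2 per group. At E16.5, controls were compared with MOF cKO embryos (MOFfl/fl/K14Cre), which lose the histone acetyltransferase MOF, and cells with the K14-H2BGFP reporter were sorted from back skin. At P0.5, controls were compared with Kansl1 cKO pups (Kansl1fl/fl/K14Cre), which lose a subunit of the MOF-containing NSL complex, and epidermal sheets freed with dispase were floated on TRIzol without a sort. The Krt14 promoter drives Cre, so deletion was limited to epithelium, all mice were of mixed C57Bl/6J and CD-1 background, and the study describes its controls as wild-type or heterozygous littermates, though the labels give no alleles for them. Exon 3 of Kansl1 is the part deleted. The study made no analysis by sex, and Xist had 46531 counts in E16.5 control replicate 1 against 283, 239 and 236 in the other E16.5 libraries. At P0.5 it had 19 counts in control replicate 2 and 3723, 7659 and 5353 in the others. Xist RNA is made in female cells, so by this measure sex was not balanced between the genotypes in either experiment. The part of sex in the differences was not tested.

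Counts on genes were 27561688 and 24957817 in E16.5 control, 22484018 and 25876862 in MOF cKO, 9108709 and 14327981 in P0.5 control, and 19774643 and 13712311 in Kansl1 cKO. Levels are given as CPM, counts divided by the total of the library on the customary CPM scale, with library sizes scaled by TMM factors within each experiment, where 1 count stood for 0.0326 to 0.115 CPM. Genes count as called where edgeR's quasi-likelihood test, with Benjamini-Hochberg adjustment over all genes tested, gave an adjusted p no higher than 0.01 and the fold change exceeded 1.5. Nothing in the labels says that replicates came from separate animals, so p-values measure the spread between these samples. In whole RNA of many cells, fewer cells that express a gene and less RNA per cell cannot be told apart.

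The targeted genes were read first. Kat8, which encodes MOF, had 443 and 408 counts in E16.5 control against 248 and 329 in MOF cKO, and its log2 fold change of -0.14 (SE 0.179, edgeR adjusted p = 0.554) was smaller than its standard error. Kansl1 had 355 and 745 counts in P0.5 control against 649 and 387 in Kansl1 cKO, and its log2 fold change was -0.52 (SE 0.167, edgeR adjusted p = 0.242). Both cKO libraries lay below both controls in CPM for each targeted gene. The same held for 37.7% of all genes tested in MOF cKO and 22.7% in Kansl1 cKO. A count of the whole gene does not resolve the deleted exons.

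Markers matched the labelled tissue. The 10 keratinocyte markers summed to 40734 and 38433 CPM in E16.5 control and to 41176 and 49409 CPM in MOF cKO, with Krt5 the most abundant. At P0.5 they summed to 90312 and 59006 CPM in control and to 61246 and 84425 CPM in Kansl1 cKO, with Krt1 the most abundant. Other cell types were present at far lower levels and not evenly between groups.

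The 15 macrophage and myeloid markers summed to 23.7 and 48.6 CPM in E16.5 control and to 118 and 150 CPM in MOF cKO. Of these markers 8 were called higher and 0 lower in MOF cKO, and their median log2 fold change was 3.48. Cd68 was the most abundant in all 4 E16.5 libraries, at 18.1 and 41.7 CPM in control and 22.9 and 51.9 CPM in MOF cKO. It was not called (log2 fold change 0.33) and made up most of the control sums. At P0.5 the same markers summed to 228 and 263 CPM in control and to 335 and 361 CPM in Kansl1 cKO. There 0 were called by edgeR or DESeq2, 12 were higher and 6 had an edgeR unadjusted p under 0.05, beside 15.7% of all genes. The markers that define Langerhans and dendritic cells were almost absent from the sorted E16.5 cells, where the 6 genes summed to 0.261 and 0.0361 CPM in control and to 1 and 0.762 CPM in MOF cKO and 0 were tested. In P0.5 control they summed to 4.47 and 4.27 CPM, and in Kansl1 cKO to 2.13 and 2.37 CPM, with Cd207 at 0 counts in all 4 P0.5 libraries.

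The 7 fibroblast markers summed to 917 and 1552 CPM in E16.5 control, 1541 and 2150 CPM in MOF cKO, 1748 and 1092 CPM in P0.5 control, and 926 and 739 CPM in Kansl1 cKO. The 6 melanocyte markers summed to 18.1 and 49.4, 20.4 and 74.9, 438 and 487, and 944 and 1048 CPM in the same order. Both sets were unevenly spread, and edgeR called 0 of either in MOF cKO or Kansl1 cKO. In MOF cKO, though, all 7 fibroblast markers had an edgeR unadjusted p under 0.05, as did 6820 of all 13956 genes. Of these markers 6 were higher, with a median of 1.03 on the log2 scale, DESeq2 called 2 of them higher, and 1 melanocyte marker passed each of these. In Kansl1 cKO DESeq2 called 4 fibroblast markers lower and 3 melanocyte markers higher, and 5 of 7 and 6 of 6 had an edgeR unadjusted p under 0.05, beside 15.7% of all genes. The 5 endothelial markers summed to 6.16 and 7.22, 10.8 and 22.3, 6.65 and 4.01, and 3.44 and 2.92 CPM, with 1 called higher in MOF cKO. The 5 lymphoid markers found summed to 1.96 and 3.90, 6.17 and 8.77, 6.19 and 4.72, and 9.59 and 9.88 CPM. Of these, 1 was tested in MOF cKO and 3 in Kansl1 cKO, and 0 were called. An edgeR unadjusted p under 0.05 was found for 1 and 2 of them, beside 6820 of all 13956 genes and 15.7%. Of the 10 keratinocyte markers, 4 were called higher and 1 lower in MOF cKO. Among all genes 10% were called higher there and 9.59% lower, which applies to each marker list.

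**Figure D1:**
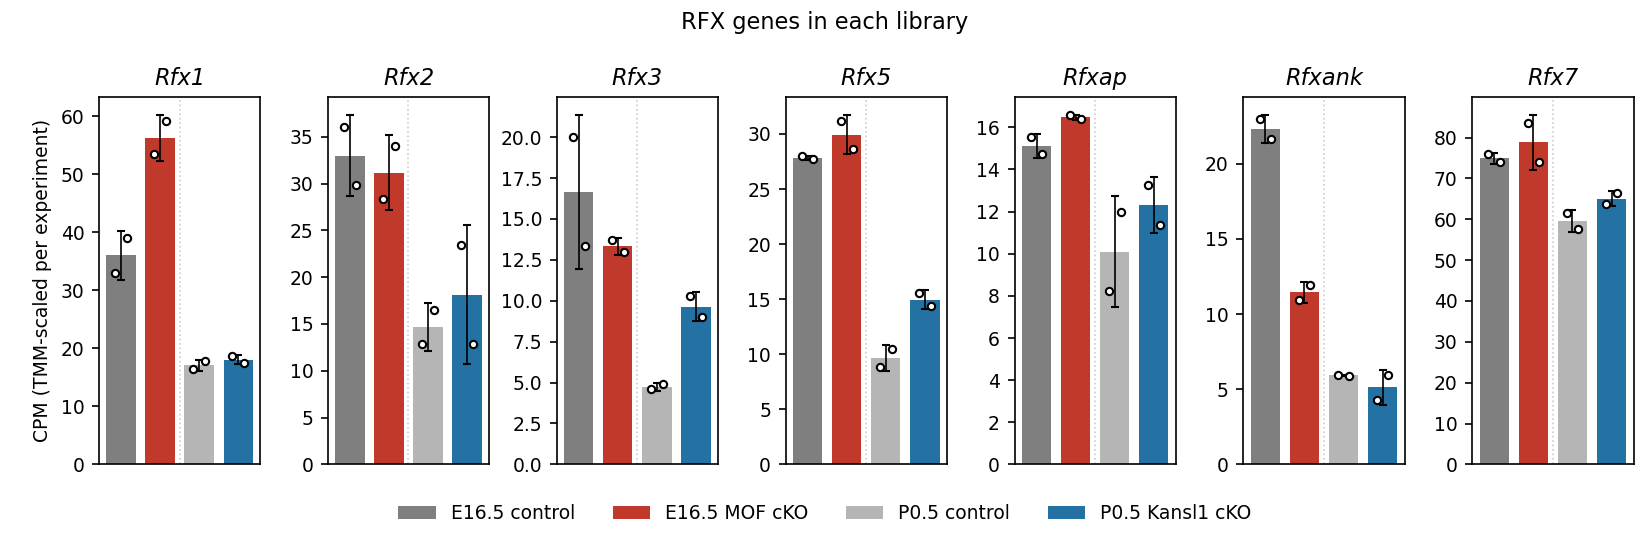
Level of each RFX gene in CPM on TMM-scaled library sizes (vertical axes, a separate linear scale per gene, from 0). Bars are group means, error bars the SD (n = 2), points the libraries, and a dotted line parts the E16.5 from the P0.5 experiment. Rfx1 stands higher and Rfxank lower in both MOF cKO libraries than in both controls.

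After deletion of MOF, the RFX genes did not move together. Rfxank, the ankyrin-repeat subunit of the RFX5 complex, fell from 23 and 21.7 CPM to 10.9 and 11.9 CPM, while Rfx1, a factor of ciliary genes, rose from 33.0 and 39.0 CPM to 53.5 and 59.1 CPM. The other 5 RFX genes were not called. Among all 13956 genes tested, 9.59% were called lower and 10% higher, beside 1 of 7 RFX genes in each direction.

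Among the ciliary RFX factors, Rfx1 had 1012 and 1081 counts in E16.5 control against 1065 and 1395 in MOF cKO. In CPM both MOF cKO libraries lay above both controls, with group means of 36.0 ± 4.26 and 56.3 ± 3.97 CPM (SD, n = 2). Its log2 fold change came to 0.64 (SE 0.137, 95% confidence interval 0.32 to 0.97, edgeR adjusted p = 0.00970), just inside the threshold. DESeq2 gave 0.67 with an adjusted p of 0.000924. The call was lost with upper-quartile factors (0.58, edgeR adjusted p = 0.0166), with scaling by library size alone (0.34, adjusted p = 0.0853) and in a fit of all 8 libraries (0.64, adjusted p = 0.0113). It was also lost without E16.5 control replicate 1 (0.52), MOF cKO replicate 1 (0.71) or MOF cKO replicate 2 (0.57), where edgeR's adjusted p was 0.0479, 0.0130 and 0.03.

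Rfx2, which acts with RFX3 in ciliated cells and in the testis, had 36.1 and 29.9 CPM in E16.5 control and 28.3 and 34.0 CPM in MOF cKO. The libraries of the 2 genotypes interleaved, and the log2 fold change was -0.08 (95% confidence interval -0.46 to 0.30, edgeR adjusted p = 0.714). Rfx3, a regulator of nodal and other primary cilia, had 20.0 and 13.3 CPM in control and 13.7 and 13.0 CPM in MOF cKO. Control replicate 1 stood above the other 3 libraries, and the log2 fold change of -0.32 (95% confidence interval -0.86 to 0.22, edgeR adjusted p = 0.3) moved to -0.0026 without it and to -0.58 without control replicate 2. Control replicate 1 is also the E16.5 library with the high Xist count, and the part of sex was not tested. Within a library, the ratio of Rfx1 to Rfx3 counts was 1.65 and 2.93 in control against 3.90 and 4.56 in MOF cKO. That ratio, which no scaling of the library can alter, was higher in both MOF cKO libraries, and the distance rests in part on E16.5 control replicate 1, where it was lowest. At P0.5 it lay the other way, at 3.58 and 3.62 in control against 1.82 and 1.94 in Kansl1 cKO.

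In the MHC class II complex, Rfxank had 705 and 600 counts in E16.5 control against 218 and 282 in MOF cKO. The groups were far apart at 22.3 ± 0.941 and 11.4 ± 0.706 CPM (SD, n = 2). Its log2 fold change came to -0.96 (SE 0.167, 95% confidence interval -1.36 to -0.57, edgeR adjusted p = 0.00438), and DESeq2 gave -0.94 with an adjusted p of 0.000637. With edgeR, the call was lost narrowly without E16.5 control replicate 1 (-0.92, adjusted p = 0.0102) and without MOF cKO replicate 1 (-0.91, adjusted p = 0.0114).

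The partners of RFXANK in this complex stood elsewhere. Rfx5, the DNA-binding subunit, had 28.0 and 27.7 CPM in E16.5 control and 31.2 and 28.7 CPM in MOF cKO, which gave a log2 fold change of 0.10 (95% confidence interval -0.21 to 0.42, edgeR adjusted p = 0.572). Rfxap, the bridging subunit, had 15.5 and 14.7 CPM in control and 16.6 and 16.4 CPM in MOF cKO, which gave a log2 fold change of 0.12 (95% confidence interval -0.27 to 0.51, edgeR adjusted p = 0.589). Within each library there were 1.48 and 1.47 Rfxank counts per Rfxap count in control, and 0.661 and 0.729 in MOF cKO. Rfxank per Rfx5 went from 0.822 and 0.782 in control to 0.350 and 0.417 in MOF cKO, whereas Rfxap per Rfx5 was 0.555 and 0.532 in control against 0.531 and 0.572 in MOF cKO. The subunits thus kept a near-constant Rfxap to Rfx5 ratio while Rfxank shifted against both.

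Rfx7, the activator of growth-restraining genes, had 75.9 and 74.0 CPM in E16.5 control and 83.6 and 74.1 CPM in MOF cKO. The log2 fold change was 0.07 (95% confidence interval -0.20 to 0.35, edgeR adjusted p = 0.654). Scaling by library size alone turned the log2 fold changes of Rfx5, Rfxap and Rfx7 to -0.20, -0.18 and -0.23, and moved the median of all genes from -0.02 to -0.32, so these 3 genes stayed above that median. Rfx1, Rfx5 and Rfxap were higher in both MOF cKO libraries than in both controls and Rfxank lower, against 34.9% of all tested genes that did not overlap and were higher and 37.7% that were lower.

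**Figure D2:**
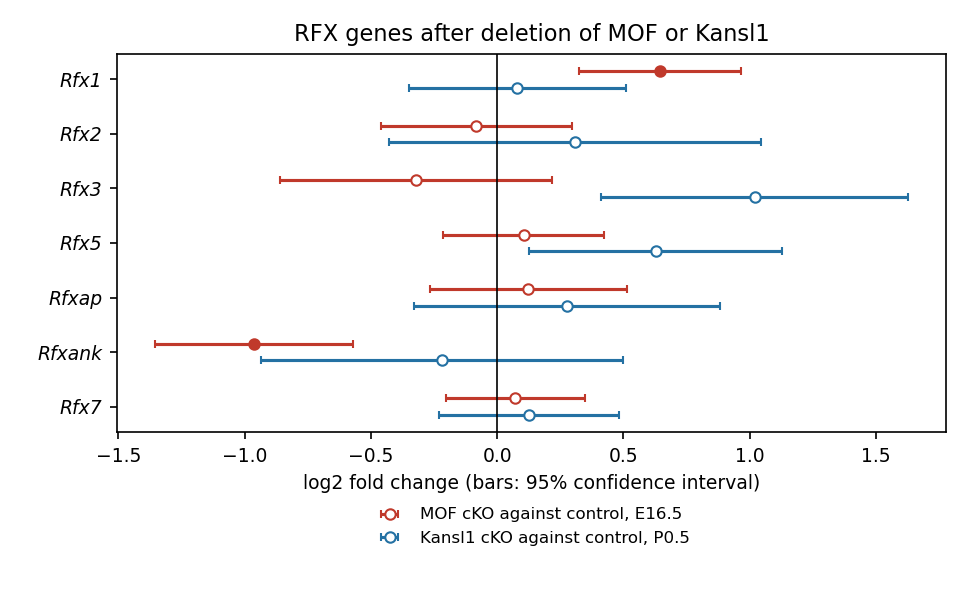
Log2 fold change of each RFX gene (horizontal axis) in MOF cKO at E16.5 (red) and Kansl1 cKO at P0.5 (blue), with 95% confidence intervals from edgeR's quasi-likelihood fit. Filled points were called, which was so for Rfx1 and Rfxank in MOF cKO, and the intervals of Rfx3 and Rfx5 in Kansl1 cKO lie above 0.

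The position of Rfxank bears on its count. GENCODE M21 places it at 70130794 to 70139154 of chromosome 8 (mm10, minus strand), and 899 bases of its exons are shared with exons of Nr2c2ap on the opposite strand. The library kit was directional, but whether the counting used the strand is not given in the sources used here, so reads of the shared bases may be lost or miscounted. Nr2c2ap, a nuclear receptor partner, had 24.4 and 21 CPM in E16.5 control and 31.4 and 23.8 CPM in MOF cKO, which gave a log2 fold change of 0.28 (SE 0.182, edgeR adjusted p = 0.255). The start of Rfxank lies 345 bases from that of Borcs8, which encodes a lysosome-positioning subunit and is listed as 2310045N01Rik. Borcs8 had 27.8 and 21.7 CPM in control and 24.3 and 15.6 CPM in MOF cKO, which gave a log2 fold change of -0.31 (SE 0.238, edgeR adjusted p = 0.330). Neither neighbour was called, and Mef2b, which starts 557 bases from Rfxank, had at most 17 counts in any library and was not tested.

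**Figure D3:**
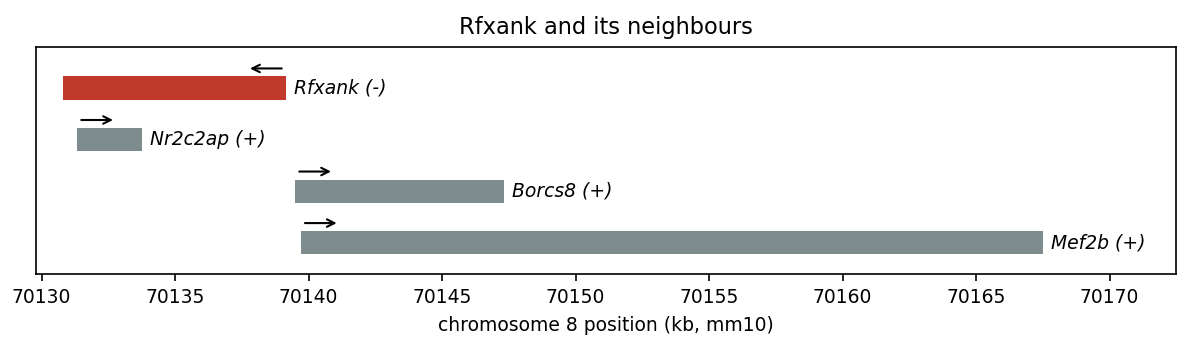
Annotated extent of Rfxank (red) and its neighbours (grey) on chromosome 8 of mm10, with position in kb on the horizontal axis and arrows at each start in the direction of transcription. Nr2c2ap lies within Rfxank on the opposite strand, and Borcs8 and Mef2b start 345 and 557 bases from the start of Rfxank.

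Other RFX loci also share exon bases with antisense genes, Rfx5 more of them than Rfxank. Rfx1 (chromosome 8, 84066834 to 84096992, plus strand) shares 42 exon bases with C330011M18Rik. Rfx5 (chromosome 3, 94954075 to 94961561, plus strand) shares 1471 exon bases with the antisense gene B230398E01Rik, and Rfx7 (chromosome 9, 72532240 to 72622937, plus strand) shares 417 with Gm27241 and 597 with Gm27232. Unlike Nr2c2ap, these antisense genes were not found among the genes listed for each library. If the counting ignored the strand, their reads could be counted for Rfx1, Rfx5 and Rfx7. Rfx2 (chromosome 17, 56775897 to 56831013), Rfx3 (chromosome 19, 27761721 to 28011166) and Rfxap (chromosome 3, 54803115 to 54807791), all on the minus strand, share no exon bases with another annotated gene.

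After deletion of Kansl1, none of the RFX genes was called, nor was any of the 13031 genes tested, so called genes made up 0% lower and 0% higher. The smallest adjusted p in edgeR's quasi-likelihood test was 0.110, DESeq2 called 66 genes lower and 35 higher but none of the RFX genes, and 2045 genes (15.7%) had an unadjusted p under 0.05. Rfx3 and Rfx5 were among the latter, 2 of the 7 RFX genes.

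Rfx3 had 40 and 76 counts in P0.5 control and 212 and 114 in Kansl1 cKO. At 4.58 and 4.91 CPM against 10.3 and 9.01 CPM, both Kansl1 cKO libraries stood well above both controls. The log2 fold change was 1.02 (SE 0.256, 95% confidence interval 0.41 to 1.63, edgeR unadjusted p = 0.00558, adjusted p = 0.204). Over the alternatives its log2 fold change ran from 0.88 to 1.11 and its adjusted p from 0.0365 to 0.634.

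Rfx5 had 8.82 and 10.5 CPM in P0.5 control against 15.5 and 14.4 CPM in Kansl1 cKO, and its log2 fold change was 0.63 (SE 0.211, edgeR unadjusted p = 0.0213, adjusted p = 0.250). Rfxank had 5.96 and 5.88 CPM in control against 4.31 and 5.93 CPM in Kansl1 cKO, and its log2 fold change was -0.22 (95% confidence interval -0.93 to 0.50). Rfxap had 8.25 and 12.0 CPM in control against 13.3 and 11.4 CPM in Kansl1 cKO, and its log2 fold change was 0.28 (95% confidence interval -0.33 to 0.88). Only Rfx5 separated the genotypes among the subunits of the complex. The ratio of Rfxank to Rfx5 counts was 0.675 and 0.562 in control and 0.277 and 0.412 in Kansl1 cKO, lower in both Kansl1 cKO libraries. That of Rfxap to Rfx5 was lower in both as well, at 0.854 and 0.791 against 0.935 and 1.14 in control, while that of Rfxank to Rfxap overlapped, at 0.325 and 0.521 against 0.722 and 0.492.

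Rfx1 had 16.4 and 17.8 CPM in P0.5 control against 18.6 and 17.5 CPM in Kansl1 cKO, and its log2 fold change was 0.08 (95% confidence interval -0.35 to 0.51). Rfx2 had 112 and 255 counts in control against 483 and 163 in Kansl1 cKO, and its log2 fold change of 0.31 became -0.23 without Kansl1 cKO replicate 1. That library alone stood high for Rfx2, at 23.4 CPM against 12.9 CPM in replicate 2 and a mean of 14.7 CPM in control. Rfx7 had 61.5 and 57.7 CPM in control against 63.7 and 66.4 CPM in Kansl1 cKO, and its log2 fold change was 0.13 (95% confidence interval -0.23 to 0.48). Rfx3, Rfx5 and Rfx7 did not overlap and were higher in Kansl1 cKO, 3 of 7 genes against 26% of all tested genes, and 0 did not overlap and were lower, against 22.7%.

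The effect of deleting MOF was compared with that of deleting Kansl1 in a fit of all 8 libraries, in which 1.17% of 14565 genes were called lower and 1.76% higher. None of the RFX genes was called. Rfx3 had the largest difference, -1.37 on the log2 scale (SE 0.348, 95% confidence interval -2.15 to -0.59, edgeR adjusted p = 0.0330), its log2 fold change being below 0 in MOF cKO and above 0 in Kansl1 cKO. It passed an adjusted p of 0.05 but not the threshold of 0.01. For Rfxank the difference was -0.77 (95% confidence interval -1.48 to -0.07, edgeR adjusted p = 0.131), and for Rfx1 it was 0.53 (95% confidence interval 0.03 to 1.04, adjusted p = 0.141). Rfx5 differed by -0.55 (edgeR adjusted p = 0.157), Rfx2 by -0.42 (adjusted p = 0.496), Rfxap by -0.18 (adjusted p = 0.734) and Rfx7 by -0.09 (adjusted p = 0.787). The calls of Rfx1 and Rfxank in MOF cKO were therefore not shown to be specific to that deletion, and the deleted gene, stage, isolation and sequencer of the 2 experiments cannot be told apart.

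Between the control groups, most RFX genes were lower in P0.5 epidermis than in sorted E16.5 cells. Rfx1, Rfx3, Rfx5 and Rfxank were called lower, 4 of 7, where 20.6% of 14565 genes were called lower and 19.6% higher. On TMM factors shared by all libraries, Rfxank had 21.1 and 20.0 CPM in E16.5 control and 6.36 and 6.33 CPM in P0.5 control, a log2 fold change of -1.70 (SE 0.225, edgeR adjusted p = 0.000226). Rfx3 had 18.4 and 12.3 CPM and then 4.89 and 5.29 CPM, a log2 fold change of -1.59 (SE 0.254, edgeR adjusted p = 0.000676). Rfx5 had 25.7 and 25.6 CPM and then 9.42 and 11.3 CPM, a log2 fold change of -1.30 (SE 0.176, edgeR adjusted p = 0.000257). Both P0.5 libraries lay below both E16.5 libraries for all 7 RFX genes, called or not. The share of all genes that did so was not counted, so this is not read as a trait of the RFX genes. Rfx1 had 30.3 and 36.1 CPM and then 17.5 and 19.1 CPM, a log2 fold change of -0.86 (SE 0.160, edgeR adjusted p = 0.00164), and this call was lost without E16.5 control replicate 2 (adjusted p = 0.0366) or P0.5 control replicate 1 (adjusted p = 0.0122).

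The other 3 were not called. Rfx2 had 33.1 and 27.7 CPM in E16.5 control and 13.7 and 17.7 CPM in P0.5 control, a log2 fold change of -0.94 (edgeR adjusted p = 0.0168). Rfxap had 14.3 and 13.6 CPM and then 8.81 and 12.9 CPM, with a log2 fold change of -0.35 (95% confidence interval -0.85 to 0.15). Rfx7 had 69.7 and 68.5 CPM and then 65.7 and 62.0 CPM, with a log2 fold change of -0.11 (95% confidence interval -0.40 to 0.17), the smallest of the 7. All genes had a median of -0.13, and -0.46 with library size alone. Stage, sort and sequencer differ together between these controls and cannot be told apart.

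Across all 4 groups on the shared factors, Rfxank was highest in E16.5 control at 20.6 ± 0.766 CPM (SD, n = 2), followed by MOF cKO at 10.6 ± 0.645, P0.5 control at 6.35 ± 0.0235 and Kansl1 cKO at 5.61 ± 1.23 CPM. The last 2 did not differ beyond their spread. Rfx1 was highest in MOF cKO at 51.9 ± 3.63 CPM, followed by E16.5 control at 33.2 ± 4.09, Kansl1 cKO at 19.8 ± 1.01 and P0.5 control at 18.3 ± 1.15 CPM, where the P0.5 groups overlapped. Rfx3 ran from E16.5 control at 15.3 ± 4.27 CPM through MOF cKO at 12.3 ± 0.494 and Kansl1 cKO at 10.6 ± 1.03 to P0.5 control at 5.09 ± 0.277 CPM. The E16.5 groups overlapped, both Kansl1 cKO libraries lay below them, and both P0.5 controls lay lowest. Rfx7 was the most even, from 72.7 ± 6.28 CPM in MOF cKO to 63.9 ± 2.59 CPM in P0.5 control.

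Between genes, levels were compared per kilobase of annotated exon. In E16.5 control Rfx2 was highest at 9.05 ± 1.15 CPM per kilobase (SD, n = 2), with Rfx7 at 7.99 ± 0.105 and Rfx1 at 7.89 ± 0.971, and these 3 did not differ beyond their spread. Rfxap at 6.45 ± 0.208, Rfxank at 5.65 ± 0.211 and Rfx5 at 5.29 ± 0.0132 CPM per kilobase came next, and Rfx3 was lowest at 1.65 ± 0.459. In this group 30.4% of 13723 genes with a length lay below Rfx3 and 60.8% below Rfx2, so the family sat in the middle of the range of tested genes. In MOF cKO Rfx1 was the highest by exon length at 12.3 ± 0.862 CPM per kilobase and Rfxank the next to lowest at 2.90 ± 0.177. The order depends on the length used: with the median coding transcript length, Rfx7 was highest in E16.5 control at 14.6 ± 0.192 CPM per kilobase, and Rfx3 remained lowest at 2.62 ± 0.728. On that length Rfx7 was also highest in MOF cKO at 15.4 ± 1.33, with Rfx1 next at 13.2 ± 0.924.

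The genes that RFX factors are known to serve were described by lists. Of 35 genes of cilium assembly, 26 were called lower and 0 higher in MOF cKO, where 9.59% of all genes were called lower and 10% higher, and their median log2 fold change was -1.63 beside -0.02 for all genes. By sign alone 33 were lower and 2, Ift20 and Kif17, higher. The lowest of them were Dync2li1, Ttc26 and B9d1. Dync2li1, a light chain of the motor that returns cargo from the ciliary tip, had 386 and 411 counts in control against 6 and 26 in MOF cKO. Ttc26, an intraflagellar transport subunit, had 262 and 230 counts in control against 8 and 13 in MOF cKO, and B9d1, of the transition zone, had 356 and 358 against 16 and 15. Their log2 fold changes were -4.24, -4.12 and -4.09 (edgeR adjusted p = 0.00100, 0.000632 and 0.000402). Most of the ciliary genes were thus called lower in libraries where Rfx1 was called higher and Rfx2 and Rfx3 were not called.

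In Kansl1 cKO 34 of these ciliary genes were tested and 0 were called by edgeR or DESeq2, 8 having an edgeR unadjusted p under 0.05 beside 15.7% of all genes, their median log2 fold change being -0.05 beside 0.01 for all genes, 18 lower and 16 higher. Ttc26 had 4.58 and 4.40 CPM in P0.5 control and 8.33 and 6.48 CPM in Kansl1 cKO. Its difference between the 2 deletions was -4.88 on the log2 scale (edgeR adjusted p = 0.000920). Of 11 regulators that act beside RFX factors in multiciliated cells, 6 were tested in MOF cKO, where edgeR called 0, DESeq2 called 1 and 1 had an edgeR unadjusted p under 0.05, as did 6820 of all 13956 genes. In Kansl1 cKO 5 were tested, 0 were called by edgeR or DESeq2, 4 were higher and 2 had an edgeR unadjusted p under 0.05, beside 15.7% of all genes. Foxj1, the master regulator of motile cilia, had at most 9 counts in any library and Mcidas, listed as Mcin, had 0 in all. The E2F partner E2f4 had 72.5 and 68.9 CPM in control and 109 and 102 CPM in MOF cKO, which gave a log2 fold change of 0.58 (edgeR adjusted p = 0.00634) that missed the fold threshold, and the cyclin Ccno, at 1.08 and 0.794 against 1.26 and 1.78 CPM, had 0.70 (edgeR adjusted p = 0.411).

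The MHC class II genes, served by RFX5, RFXAP and RFXANK, were barely expressed. Their coactivator Ciita had 0 and 13 counts in E16.5 control, 0 and 5 in MOF cKO, 2 and 9 in P0.5 control, and 1 and 4 in Kansl1 cKO. The 11 genes of the list summed to 12.9 and 17.7 CPM in E16.5 control and to 18.2 and 21.4 CPM in MOF cKO, with Cd74, the invariant chain, the most abundant. Of 5 tested in MOF cKO, 1 was called higher and 0 lower, beside 10% and 9.59% of all genes, their median log2 fold change being 0.47. The called gene, H2-Eb1, a class II beta chain, had 15 and 12 counts in control against 62 and 94 in MOF cKO, which gave a log2 fold change of 2.93 (SE 0.546, edgeR adjusted p = 0.00581). Others of the 5 lay on the opposite side without being called. H2-Ab1, another beta chain, had 120 and 132 counts in control against 0 and 41 in MOF cKO, and H2-DMb1, of the peptide-loading dimer, had 12 and 13 against 2 and 2. Both cKO libraries were below both controls for these genes, as for 37.7% of all genes, with edgeR adjusted p = 0.141 and 0.121. Macrophages can express class II genes, though these cells were sorted for the K14-H2BGFP reporter. Macrophage markers summed to 118 and 150 CPM in these libraries against 23.7 and 48.6 CPM in control. Of the control sums, 18.1 and 41.7 CPM came from Cd68, which was not called (log2 fold change 0.33). The part of macrophages in the rise of H2-Eb1 was not tested.

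At P0.5 the class II genes summed to 16.4 and 30.9 CPM in control and to 11.5 and 12.3 CPM in Kansl1 cKO. Of 5 tested, 0 were called by edgeR or DESeq2, 2 had an edgeR unadjusted p under 0.05 (15.7% of all genes) and all 5 had a log2 fold change below 0, with a median of -0.96. The dendritic cell markers, with Itgax leading, had lower sums in the same Kansl1 cKO libraries and the macrophage markers higher ones, and their part was not tested.

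Class I genes, which the same complex serves with the coactivator NLRC5, stood on both sides of control in MOF cKO. Of 10 tested, 2 were called higher and 0 lower, where 10% of all genes were called higher, their median log2 fold change being 0.36. B2m, the invariant light chain, had 33.8 and 37.4 CPM in E16.5 control and 77.3 and 74.4 CPM in MOF cKO, which gave a log2 fold change of 1.09 (SE 0.119, edgeR adjusted p = 0.000838). Tapbp, a chaperone of peptide loading, had 38.6 and 35.8 CPM and then 66.3 and 75.7 CPM, a log2 fold change of 0.93 (SE 0.126, edgeR adjusted p = 0.00169). Both genes were thus higher in the libraries in which Rfxank was lower. In those libraries 8 of 15 macrophage markers were also called higher, and the part of such cells was not tested. Among the class I genes not called, H2-T23, a nonclassical heavy chain, had 1000 and 675 counts in control against 416 and 275 in MOF cKO. Tap2, a peptide transporter subunit, had 176 and 108 against 33 and 58, and Psmb9, of the immunoproteasome, had 30 and 22 against 4 and 2. These 3 genes and H2-D1 were lower in both cKO libraries than in both controls, 4 of 10 beside 37.7% of all genes, and edgeR's adjusted p for the 3 was 0.0567, 0.0560 and 0.0522. Reads may be split among the similar H2 genes of class I, which does not touch B2m or Tapbp. In Kansl1 cKO 0 of 10 were called by edgeR or DESeq2 and 0 had an edgeR unadjusted p under 0.05 (15.7% of all genes), with a median of -0.09.

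The NF-Y subunits and CREB1 bind MHC promoters beside the RFX5 complex. Of the 4 genes tested, 0 were called in either experiment by edgeR or DESeq2, and 1 in each had an edgeR unadjusted p under 0.05, beside 6820 of all 13956 genes in MOF cKO and 15.7% in Kansl1 cKO. Nfyb had 68.0 and 62.4 CPM in E16.5 control and 80.5 and 78.4 CPM in MOF cKO, which gave a log2 fold change of 0.28, and Creb1 had 116 and 85.6 against 120 and 96.0 CPM, a log2 fold change of 0.10.

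Of 10 known targets of RFX7, 2 were called higher and 0 lower in MOF cKO, beside 10% and 9.59% of all genes, and their median log2 fold change was 0.22. Abat, a GABA transaminase, had 6.98 and 5.52 CPM in E16.5 control and 18.5 and 14.9 CPM in MOF cKO, which gave a log2 fold change of 1.41 (SE 0.232, edgeR adjusted p = 0.00352). Tob1, an antiproliferative factor, had 58.7 and 69.7 CPM and then 98.0 and 116 CPM, a log2 fold change of 0.74 (SE 0.14, edgeR adjusted p = 0.00624). In Kansl1 cKO edgeR called 0 of 10 and 4 had an unadjusted p under 0.05, beside 15.7% of all genes, with a median of 0.37 and 9 higher, while DESeq2 called Pik3r3, a regulatory subunit of PI3K, higher (1.25, adjusted p = 0.00598).

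**Figure D4:**
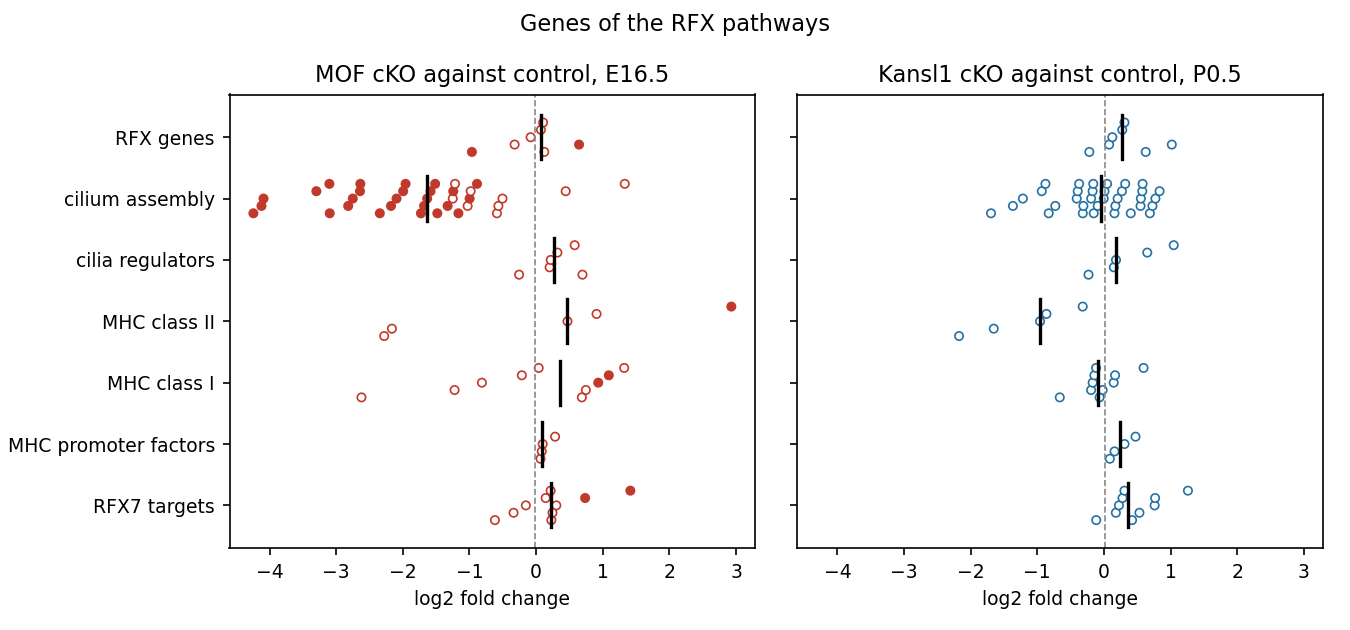
Log2 fold change (horizontal axes) of every tested gene of the RFX-related lists, cell markers left out, in MOF cKO (left, red) and Kansl1 cKO (right, blue), 1 point per gene, filled where called, with vertical bars at list medians and a dashed line at the median of all genes. The cilium assembly genes in MOF cKO have the lowest median of the lists drawn, -1.63.

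Promoter sequence was read to see where the X-box half-site GTTGCC occurs, on either strand of the RefSeq windows (GRCm38.p6) from 250 bases before to 50 after each start. Of the 7 RFX genes, 6 had a window, Rfxap being the exception. The half-site was in 3 of them, those of Rfx1, Rfx2 and Rfx3, the factors of ciliary genes, and in 12.5% of all 32851 windows. The windows of Rfx5, Rfx7 and Rfxank did not hold these letters. In each of the 3 promoters the half-site stands back to back with the letters AAC of another in the opposite sense, as AACNGTTGCC, which 44 of all windows hold (0.134%). This longer pattern was chosen after the sequences were seen. The sites are shown because the ciliary RFX genes share them, with AACNGTTGCC in capitals, at chr8:84066833-84066842 for Rfx1, chr17:56831119-56831128 for Rfx2 and chr19:28011130-28011139 for Rfx3, each read on the strand of its gene.
Rfx1: tgggtagcAACAGTTGCCccggtgag
Rfx2: agcttggtAACCGTTGCCgggcgcaa
Rfx3: gttatagcAACCGTTGCCttgtgaat

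Of the 35 genes of cilium assembly, 29 had at least 1 window, 33 windows in all, and 15 of these genes (51.7%) held the half-site in any of theirs. Shares of the list are per gene and those of all windows per window, so they are not on the same unit. In MOF cKO 11 of those 15 were called lower (median log2 fold change -1.51), as were 9 of the 14 without it (median -1.32), so the fall was not limited to promoters with these letters. A full X-box, written GTTNCCNGGNAAC or GTTNCCNNGGNAAC, was found for 3 of the 29 genes (10.3%) and in 0.718% of all windows, and for none of the RFX genes. A wider form, GTTNCNNNGNAAC or GTTNCNNNNGNAAC, which includes the matches of the former and was added after the data were seen, was found for 5 of the 29 genes (17.2%) and in 1.98% of all windows. These sites are shown as the closest to a complete X-box among the ciliary genes, with the site in capitals, at chr6:38381491-38381504 for Ttc26, chr7:25680796-25680809 for B9d2, chr11:87853191-87853204 for Mks1, chr3:36613497-36613510 for Bbs7 and chr4:138262178-138262190 for Kif17.
Ttc26: ccggcggcGTTGCCGTGGAAACggagctcg
B9d2: aacctgctGTTGCCCCAGCAACagtcgggg
Mks1: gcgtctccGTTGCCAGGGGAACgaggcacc
Bbs7: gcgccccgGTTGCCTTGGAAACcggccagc
Kif17: tcacggagGTTGCCCAGCAACggcgaacg

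In MOF cKO, Ttc26, B9d2 and Mks1 were called lower, with log2 fold changes of -4.12, -1.99 and -1.51. Bbs7, of the complex that carries membrane cargo into cilia, had 8.41 and 5.34 CPM in control and 3.36 and 3.6 CPM in MOF cKO, which gave a log2 fold change of -0.98 (edgeR adjusted p = 0.0588). Kif17, a ciliary kinesin, was not called either, with 39 and 39 counts in control against 67 and 80 in MOF cKO, which gave a log2 fold change of 1.33 (SE 0.460, edgeR adjusted p = 0.0555). Of these 5 genes, 3 were called lower and 0 higher, beside 26 of 35 and 0 of 35 in the whole list and 9.59% and 10% of all genes, and a match to these letters says nothing on whether a factor was bound.

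The genes most like 6 of the RFX genes across the 8 libraries were taken by Pearson's r of log2 CPM over 14564 other genes, as a description of libraries that share 2 stages and 2 isolations. Rfxank was most like Odf2l, a gene of the centriole and cilium base, and A730017L22Rik (r = 0.998 and 0.995). Rfx1 was most like Trmt2a and Relb (0.996 for both), and 1505 genes had r over 0.9 with it. Rfx5 was most like Birc5 and Tbc1d1 (0.994 for both), Rfx3 was most like Pknox1 and Piezo2 (0.98 and 0.979), and Rfx2 was most like Chmp7 and Anln (0.973 for both). Rfxap was most like Mex3d and Bnip2 (0.967 and 0.966).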

How the data were processed

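Libraries were made from polyadenylated RNA with a directional kit and sequenced as paired reads of 150 nt, on a HiSeq for the E16.5 and a NovaSeq for the P0.5 experiment. The authors deposited unnormalized HTSeq counts per gene symbol on mm10, and each count file was used as it stands. The study's methods name HISAT2 as the aligner and the submitters' processing notes TopHat2. The annotation and strand setting are not given in the sources used here. Entries that name no gene held 21.1% to 26.0% of reads and were left out.

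Tests were run with edgeR 4.0.16 in R 4.3.3 (filterByExpr, TMM factors, quasi-likelihood test, Benjamini-Hochberg adjustment), with each experiment fitted alone and a fit of all 8 libraries for contrasts between experiments. DESeq2 1.42.0 was an alternative. Gene positions and lengths came from GENCODE M21, where 92.9% of symbols matched. The script was tested on simulated data. All 7 RFX genes are named. From each list the text names up to 3 called genes with the lowest and 3 with the highest log2 fold change in MOF cKO at a mean of at least 1 CPM, or, where none was called, the 2 with the largest absolute change. Further genes are named for a position, a motif, a role as coactivator, a DESeq2 call, values opposite to the called genes of their list or a near-zero level, after their values were seen. Cell markers are given as sums. The members and lists were chosen with earlier results of these data known.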

Additional observations from a re-analysis of the deposited data

Results flagged for a closer look

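Rfx3 had the largest difference between the experiments among the RFX genes, though it was not called: its log2 effect in MOF cKO minus that in Kansl1 cKO was -1.37, for which edgeR's quasi-likelihood test gave adjusted p = 0.0330, above the threshold of 0.01. In a likelihood ratio test the adjusted p was 0.00729, and over all alternatives the difference ran from -1.60 to -1.06 and the adjusted p up to 0.116. Deleted gene, stage, isolation and sequencer cannot be told apart.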

How the results depend on the processing

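With 2 libraries per group, leaving out a library leaves a lone sample that is assumed to vary like the other groups. RFX genes called higher in MOF cKO numbered 0 with upper-quartile factors, library size alone or a fit of all 8 libraries, and 0 to 1 with a library left out; those called lower numbered 0 to 1 with a library left out. In the difference between experiments 1 RFX gene, Rfx3, was called lower in a likelihood ratio test and at an adjusted p of 0.05.

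Signs turned only for values that were not called, and the cause was not tested. In MOF cKO library size alone gave -0.20 for Rfx5, -0.23 for Rfx7 and -0.18 for Rfxap, and leaving out a library gave -0.22 to 0.0563 for Rfx2 and -0.0217 to 0.16 for Rfx7. In Kansl1 cKO leaving out a library gave -0.0054 to 0.13 for Rfx1 and -0.23 to 0.67 for Rfx2. The difference for Rfx7 was 0.0136 with DESeq2, 0.0142 with RLE factors and 0.0400 when all genes with any count were kept, and with a library left out ran from -0.18 to 0.14; for Rfxap it ran from -0.51 to 0.0463 and for Rfx2 from -0.79 to 0.0817. Between controls Rfx7 had 0.0171 with DESeq2 and 0.0179 with RLE factors, and Rfx2 was called lower in 4 alternatives, among them a likelihood ratio test (adjusted p = 0.00408).

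All genes called in MOF cKO numbered 1338 lower and 1395 higher, and 2139 lower in a likelihood ratio test, 2743 lower and 769 higher with library size alone, 2197 lower when all genes with any count were kept, and 2758 and 2654 at an adjusted p of 0.05. In Kansl1 cKO, 0 genes were called, against 66 and 35 with DESeq2, 114 and 71 in a likelihood ratio test, 1 and 0 with library size alone, 117 and 73 when all genes with any count were kept, and 0 to 197 lower and 0 to 76 higher with a library left out. The difference had 170 and 256, against 520 and 976 with DESeq2, 801 and 909 in a likelihood ratio test, 539 and 1112 when all genes with any count were kept, 985 and 1027 at an adjusted p of 0.05, and 12 to 135 lower and 61 to 288 higher with a library left out. Between controls 2997 were lower, and 1543 to 2514 with a library left out.

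The study reports pairs of samples with littermate controls, but the labels do not say that replicate numbers mark those pairs. Deviations of same-numbered libraries correlated at 0.251 at E16.5 and -0.256 at P0.5. With the replicate block, Rfx1 (0.65, edgeR adjusted p = 6.35e-06) and Rfxank (-0.96, edgeR adjusted p = 2.73e-05) kept their calls in MOF cKO, 2263 genes were called lower in MOF cKO and 0 lower and 1 higher in the difference. The block is a term of unknown meaning in a fit of few libraries, which leaves little to estimate the spread from. Its smaller adjusted p-values therefore do not make the calls firmer. A crossed pairing at P0.5, chosen after seeing the data, gave 1 lower and 0 higher.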
